A study of Mus musculus with 16 samples.

Results

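The comparison described here set the livers of calorie-restricted mice (CR) against the livers of light mice that ate ad libitum (light AL). It used 8 of the 16 arrays of the series, namely all 4 CR arrays and the 4 arrays of control (C) and medium-fat (MF) mice of low body weight. Treatment was a term in the main fit of each comparison. It asks which liver genes differ in CR when the reference mice are light themselves. The 4 C and MF arrays of high body weight (heavy AL) were used only to show where the answer depends on the weight of the reference, and the 4 arrays of a diet that alternated weekly were not compared.

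All mice were male C57BL/6J mice, 12 months old, kept 1 to a cage and on their diet from the age of 9 weeks. C mice ate the purified AIN-93W diet ad libitum, and MF mice a variant of it with more fat ad libitum. CR mice got daily portions of AIN-93W-CR, set by design at 30% less energy than the mean intake of C mice. The energy intake that the study measured in CR mice was further below that of C mice than this design. Treatment was a single gavage, 6 h before death, of either Wy-14643 at 160 mg/kg (Wy, an agonist of the fatty acid receptor PPARα) or its carrier, carboxymethyl cellulose (mock), and food was withheld from 4 h before the gavage. Arrays are named by body weight class, diet and treatment. The CR group held 1 high and 1 low weight mouse per treatment, the light AL group 1 C and 1 MF mouse per treatment, and each array 1 mouse. The labels give weight classes within a diet but no weights, so how far the light AL mice were from the CR mice in grams is not known here. CR mice ate 1 portion a day and AL mice at any time, so meal timing cannot be told apart from restriction.

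Calorie restriction lowers the energy that reaches the liver and changes when it arrives, and the liver answers through hormones, nutrient sensors and lipid-regulated transcription factors. In male rodents the pulses of growth hormone keep a male set of liver genes on and a female set off, through the transcription factor STAT5. Sterol-sensing SREBP proteins switch on the enzymes that make cholesterol and fatty acids, and the factor NRF2 those that detoxify electrophiles.

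The 10 hepatocyte markers on the array had a median of 13.18 log2 in CR and 13.12 in light AL livers, and their summed intensity ran from 75321 to 82297 and from 76915 to 79494. Markers of pancreas and skeletal muscle had medians near the filter of log2 4.32. Adipocyte markers summed to between 230.9 and 316.6 in CR and between 197.5 and 642.4 in light AL livers, with Adipoq and Adig under the filter on every array, and their part in the results was not tested. The high CR mock array stood apart in macrophage markers. Summed over 12 Kupffer cell markers, CR arrays ran from 4440 to 7532, light AL arrays from 5683 to 6506. Array correlations among the 8 arrays lay between 0.972 and 0.995. Between arrays of the same treatment, the root-mean-square difference over 14275 tested genes was 0.212 and 0.259 log2 for the pairs of CR arrays, 0.202 for both pairs of light AL arrays and 0.305 to 0.392 for the 8 pairs of a CR and a light AL array. Light C and light MF livers differed in 1 gene, Obp2a, at a limma adjusted p under 0.05 (495 at an unadjusted p under 0.05).

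Against light AL livers, limma called 1772 of 14275 genes in CR livers at an adjusted p under 0.05, which is 12.4% of those tested. Of these, 689 were higher (4.83%) and 1083 lower (7.59%), and 79 rose and 81 fell at least 2-fold. Of these 160 genes, 33 risen and 18 fallen ones belong to the gene lists used here, which hold 582 of the 14275 tested genes. The lists were chosen with earlier results of these data known, so this overlap does not measure how much of the difference they cover. The 4 CR values lay beyond the light AL values of the same treatment in 3671 genes (25.7% of those tested) and beyond all 4 light AL values in 1895 (13.3%), 815 of them higher (5.71%) and 1080 lower (7.57%). Without 1 array the count was 981 to 1577. It was under 1772 by more than 1.5 times without low C mock (981), low C Wy (992) or high CR Wy (1105). Fits on part of the arrays called 604 genes against light C (4.23%), 684 against light MF (4.79%), 83 in mock (0.581%) and 347 in Wy livers (2.43%).

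The first sequences to show are the promoters of Cyp2b9 and Cyp2b13, cytochromes P450 of female mouse liver. Both lie on chromosome 7, and they were the third and the first highest rises. The 250 bases before the start of each gene (RefSeq, build GRCm38.p6, plus strand) are identical at 248 positions, and capitals mark the 2 that differ. Counted from 1 at the 5′ end of the printed run, with the base of Cyp2b9 first, these are T48C and C104T.
Cyp2b9, chr7:26173159-26173408: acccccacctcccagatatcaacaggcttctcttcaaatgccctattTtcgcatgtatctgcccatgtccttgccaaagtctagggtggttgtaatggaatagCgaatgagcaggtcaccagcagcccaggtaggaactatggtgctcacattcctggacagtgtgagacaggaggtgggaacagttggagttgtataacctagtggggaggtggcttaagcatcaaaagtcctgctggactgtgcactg
Cyp2b13, chr7:26061245-26061494: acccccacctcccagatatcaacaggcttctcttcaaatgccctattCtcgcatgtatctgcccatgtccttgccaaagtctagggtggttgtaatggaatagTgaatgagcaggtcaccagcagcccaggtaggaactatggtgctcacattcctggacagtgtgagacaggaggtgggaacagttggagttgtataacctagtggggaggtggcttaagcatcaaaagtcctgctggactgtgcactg

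Sex-biased genes gave the highest rises and deepest falls in CR against light AL livers. Per-array values are log2 RMA intensities, given for CR in the order high CR mock, low CR mock, high CR Wy and low CR Wy, and for AL in the order C mock, MF mock, C Wy and MF Wy. Cyp2b13 read 10.59, 10.33, 10.90 and 10.46 in CR, and 3.33, 3.57, 3.62 and 3.62 in light AL livers. All 4 light AL values lay under the filter, so that with them raised to it Cyp2b13 was at least 76.1-fold higher in CR (fitted log2 difference 7.04 ± 0.11, SE, n = 4 mice per group, limma adjusted p = 1.12e-08). Cyp2b9 read 12.46, 12.33, 12.43 and 12.30 in CR, and 8.71, 8.39, 8.30 and 8.61 in light AL livers. The groups were far apart, and Cyp2b9 rose 14.7-fold (3.88 ± 0.10, adjusted p = 3.43e-07). In heavy AL livers Cyp2b9 read 11.95, 12.11, 11.93 and 11.78, close to the CR values, whereas Cyp2b13 read 5.22, 7.45, 3.81 and 4.10 and stayed far under them. Against heavy AL, CR was higher by 0.44 ± 0.08 log2 for Cyp2b9 (adjusted p = 0.00833) and by at least 37.9-fold for Cyp2b13 with values raised to the filter (adjusted p = 0.00158). Heavy AL minus light AL was 3.44 ± 0.10 for Cyp2b9 (adjusted p = 4.56e-06) and did not pass for Cyp2b13 (adjusted p = 0.152), for which all 4 light AL and 2 heavy AL arrays lay under the filter. The 2 genes are near-identical copies, and probes of one may also bind RNA of the other, which was not tested. On the heavy AL Wy arrays Cyp2b13 lay under the filter (3.81 and 4.10) while Cyp2b9 read 11.93 and 11.78.

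**Figure D1:**
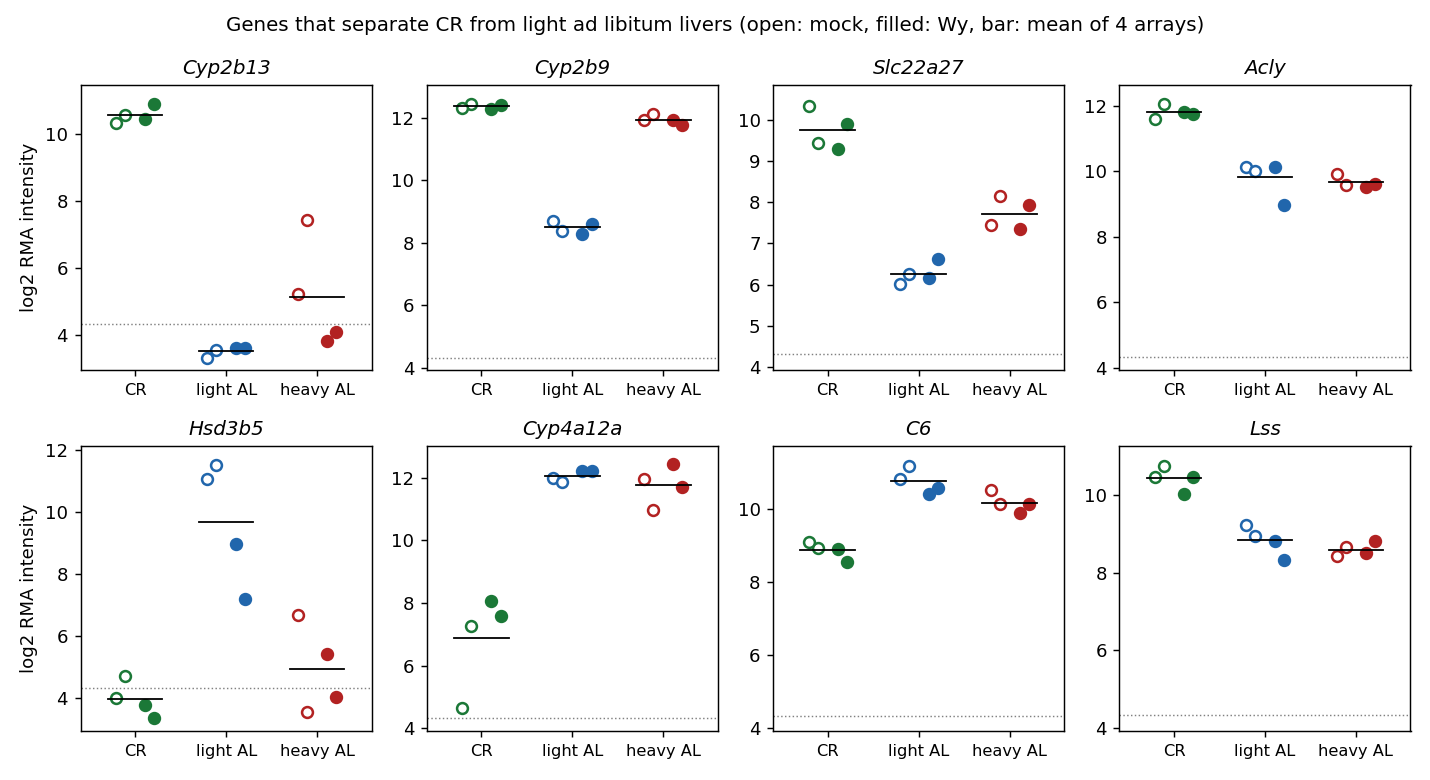
Log2 RMA intensity (vertical axis, each panel with its own range) of 8 genes on the 4 CR, 4 light AL and 4 heavy AL arrays, with open points for mock, filled points for Wy, a bar for the mean of 4 arrays and a dotted line at the filter of log2 4.32. Cyp2b9 sits between 11.78 and 12.11 in heavy AL livers and between 8.30 and 8.71 in light AL livers, while Cyp4a12a, C6, Acly and Lss separate CR from both AL groups.

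Of the 19 entries of the female-biased list, 14 were on the array and 11 were tested. Of these 7 rose in CR against light AL and none fell (4.83% of all genes tested rose), with a median of 1.22 log2 against -0.01 over all genes. The filter counted CR arrays too, and members that did not reach it are missing from the count and the median. Both therefore describe the tested members only. Outside CR livers Cyp2b13 was over the filter on 2 heavy AL arrays only, so it was tested because of its CR arrays. The organic anion transporter Slc22a26 read 9.18, 11.44, 10.23 and 7.74 in CR, and 5.30, 5.42, 5.66 and 5.79 in light AL livers (4.10 ± 0.65, adjusted p = 0.0063). Its relative Slc22a27 rose by 3.49 ± 0.23 (adjusted p = 0.000371), and the flavin monooxygenase Fmo2 by 1.22 ± 0.12 (adjusted p = 0.00117). Hao2, a peroxisomal oxidase of hydroxy acids, was at least 3.23-fold higher in CR, with all 4 light AL arrays under the filter (2.14 ± 0.18, adjusted p = 0.000728). Against heavy AL livers 6 of the 11 rose (7.62% of all genes tested) with a median of 0.74, and heavy AL was above light AL in 2, Cyp2b9 and Slc22a27 (3.49% of all genes tested). Slc22a27 lost that call without low C mock, low C Wy or low MF mock.

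Male-biased genes lay on the other side. Of 24 entries 21 were on the array and 20 were tested, 15 fell in CR against light AL and none rose (7.59% of all genes tested fell), with a median of -1.26. Cyp4a12a, a fatty acid hydroxylase of male liver, read 7.27, 4.66, 7.59 and 8.07 in CR, and 11.99, 11.84, 12.20 and 12.19 in light AL livers. It fell 35.8-fold (-5.16 ± 0.53, adjusted p = 0.00151), and its near-identical copy Cyp4a12b, which probes may not tell apart from it, by -5.22 ± 0.54 (adjusted p = 0.00153). The steroid dehydrogenase Hsd3b5 read 4.73, 4.00, 3.35 and 3.79 in CR, with 3 of 4 arrays under the filter, and 11.06, 11.53, 8.98 and 7.20 in light AL livers, and with values raised to the filter it was at least 38.6-fold lower (-5.73 ± 0.54, adjusted p = 0.000997). The groups do not overlap for either gene. The bile acid and steroid uptake carrier Slco1a1 was lower by -4.56 ± 0.87 (adjusted p = 0.0132), the complement inhibitor Susd4 by -3.32 ± 0.34 (adjusted p = 0.00146), and the complement protein C6 by -1.89 ± 0.12 (adjusted p = 0.000278). The oxysterol hydroxylase Cyp7b1 fell by 1.68 ± 0.18 (adjusted p = 0.00171).

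Hsd3b5 and Cyp4a12a parted in heavy AL livers. Hsd3b5 read 6.69, 3.54, 5.43 and 4.05 there, with 3.54 and 4.05 under the filter, and overlapped CR. For Hsd3b5 heavy AL minus light AL was -4.77 ± 0.84 (adjusted p = 0.024, lost without low MF mock, low C Wy, low C mock or high C mock). Cyp4a12a read 11.94, 10.97, 12.43 and 11.71, level with light AL livers (-0.29 ± 0.22, adjusted p = 0.471). Against heavy AL, CR minus heavy AL was -0.96 ± 0.62 for Hsd3b5 (adjusted p = 0.316) and -4.87 ± 0.55 for Cyp4a12a (adjusted p = 0.00163). Over the male-biased list 7 fell and 1 rose against heavy AL (9.91% and 7.62% of all genes tested), with a median of -0.74, and the falls numbered 4 without high CR Wy, low CR mock, high C mock or high C Wy and 12 without high CR mock. Heavy AL was below light AL in 4 (1.53% of all genes tested). The count of falls against light AL was 9 without low C mock and 8 with a trended and robust prior. Of the other falls the major urinary protein Mup21 (-2.28) lost its call without low C mock or low C Wy, and the fatty acid elongase Elovl3 (-2.25) without low C mock. Outside the list, the calls of the urinary protein Mup6 (-3.01) and the sulfotransferase Sult2a8 (-1.97) were lost without 5 and 6 of the 8 arrays in turn, low C mock and low C Wy among them.

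**Figure D2:**
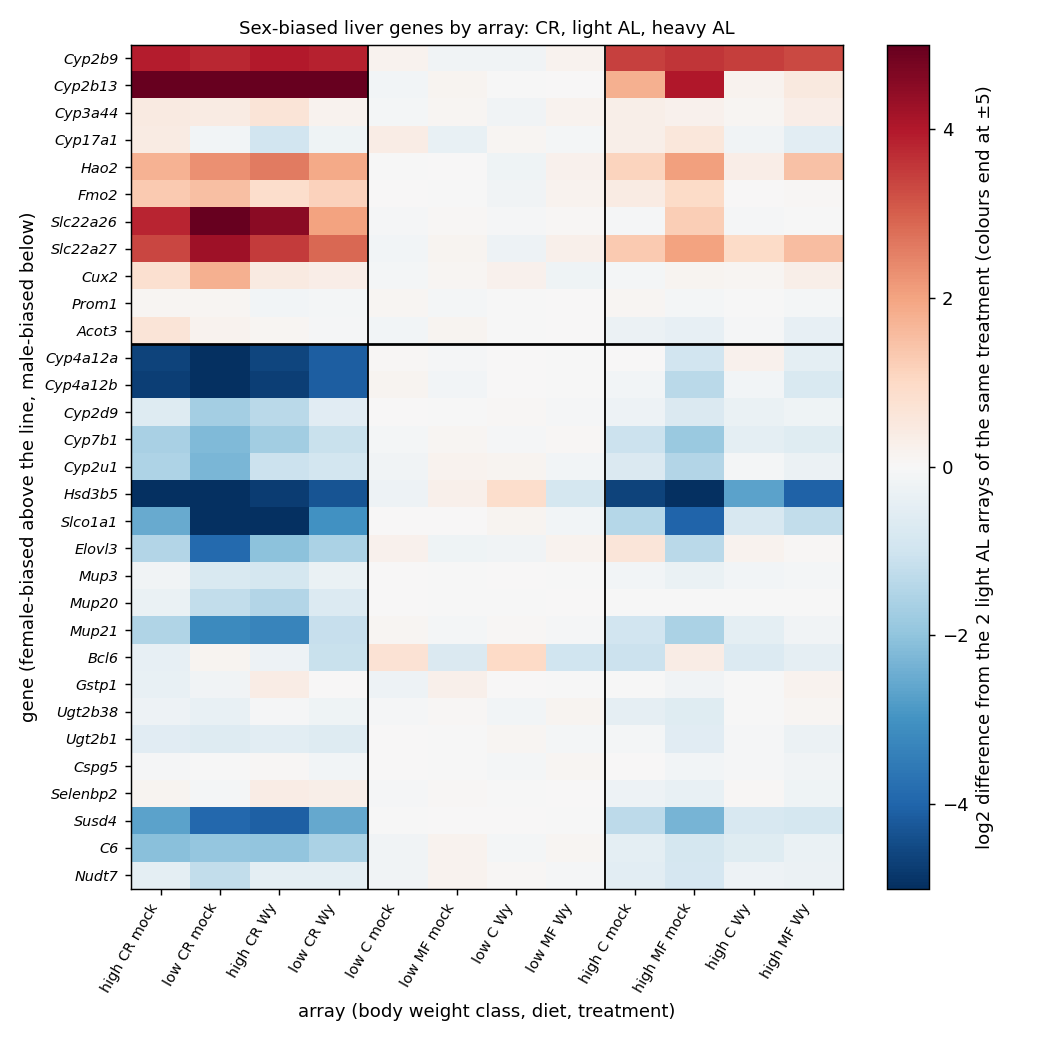
Log2 difference of each array (columns) from the mean of the 2 light AL arrays of its treatment, for the 11 female-biased genes above the line and the 20 male-biased genes below it, with red for higher and blue for lower and colours ending at 5 log2. Cyp2b9 is red and Hsd3b5 blue in heavy AL livers as in CR livers, with Hsd3b5 paler on the high C Wy array. Cyp4a12a and Cyp4a12b are deep blue in CR livers only.

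Of 18 genes of growth hormone and IGF signalling tested, 3 rose and 4 fell in CR against light AL (4.83% and 7.59% of all genes tested), with a median of -0.11, and 1 or 2 fell without low MF mock, low MF Wy, low C Wy, low CR Wy or high CR Wy. Stat5a, a growth hormone signal transducer, fell by 0.68 ± 0.10 (adjusted p = 0.00517), and the growth hormone receptor Ghr by 0.26 ± 0.05 (adjusted p = 0.0179). Igfbp1, a fasting-induced binding protein of insulin-like growth factors, read 11.73, 11.87, 12.13 and 11.92 in CR, and 10.11, 8.40, 10.41 and 10.70 in light AL livers. Every CR value was above every light AL value, and Igfbp1 rose 4.03-fold (2.01 ± 0.35, adjusted p = 0.00989). The insulin receptor substrate Irs2 rose by 0.57 ± 0.11 (adjusted p = 0.0135). Igfbp2 was higher in CR by 0.42 ± 0.10 (adjusted p = 0.0257) and Igfals, which stabilises circulating IGF, lower by -0.61 ± 0.15 (adjusted p = 0.0317). The calls of Igfbp2 and Igfals were each lost without low CR Wy, low C Wy, low MF mock or low MF Wy, that of Igfbp2 also without high CR Wy and that of Igfals without high CR mock, and that of Ghr without high CR Wy, low C Wy or low MF Wy.

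Genes that make cholesterol rose nearly all together in CR livers. Of 21 entries 18 were on the array and tested, 16 rose and none fell (4.83% of all genes tested rose), with a median of 0.75 log2. The promoter of Hmgcs1, the synthase that starts the pathway, is printed because it holds the sterol regulatory element TCACNCCAC, at which SREBP proteins bind, in capitals (RefSeq, build GRCm38.p6, plus strand, 250 bases before the start).
Hmgcs1, chr13:119690101-119690350: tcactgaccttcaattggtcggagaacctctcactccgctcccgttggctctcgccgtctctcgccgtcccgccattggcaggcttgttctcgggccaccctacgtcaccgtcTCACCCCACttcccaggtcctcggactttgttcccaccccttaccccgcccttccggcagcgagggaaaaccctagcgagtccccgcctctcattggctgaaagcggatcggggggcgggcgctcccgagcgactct
The element, searched on both strands, was in 346 of all 32851 promoters (1.05%) and in 1 of the 18 promoters of the 15 tested cholesterol synthesis genes that have an entry. A match is a description of these letters and no measurement of binding.

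Hmgcs1 read 11.17, 10.76, 11.27 and 10.97 in CR, and 10.13, 9.63, 10.13 and 10.30 in light AL livers, and it rose by 0.99 ± 0.14 (adjusted p = 0.00405). Pmvk, the phosphomevalonate kinase, read 9.66, 9.47, 9.25 and 9.02 in CR, and 8.18, 7.85, 7.67 and 7.21 in light AL livers. Lss, which closes the sterol rings, read 10.76, 10.49, 10.48 and 10.04 against 9.23, 8.95, 8.83 and 8.35. In all 3 genes the lowest CR array was above the highest light AL array. Pmvk rose 3.07-fold (1.62 ± 0.12, adjusted p = 0.000545) and Lss 3.03-fold (1.60 ± 0.14, adjusted p = 0.000784), and the sterol demethylase Cyp51 followed (1.13 ± 0.14, adjusted p = 0.00254). The later enzymes Lbr (0.73 ± 0.10) and Msmo1 (0.77 ± 0.11) rose as well. The members that did not pass were Tm7sf2 (-0.08) and Ebp (0.06), named here after their values were seen. Among 10 genes of sterol sensing, uptake and export, 2 rose and 1 fell (median 0.02; 4.83% and 7.59% of all genes tested). The fall, in the cholesterol exporter Abca1 (-0.32 ± 0.08, adjusted p = 0.0298), was lost without 6 of the 8 arrays in turn. Insig1, which holds SREBP back when sterols are plentiful, rose by 1.27 ± 0.18 (adjusted p = 0.00426), and Srebf2, the SREBP of this pathway, was higher by 0.28 ± 0.07 (adjusted p = 0.0266, lost without 7 of the 8 arrays in turn, all but low MF Wy).

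**Figure D3:**
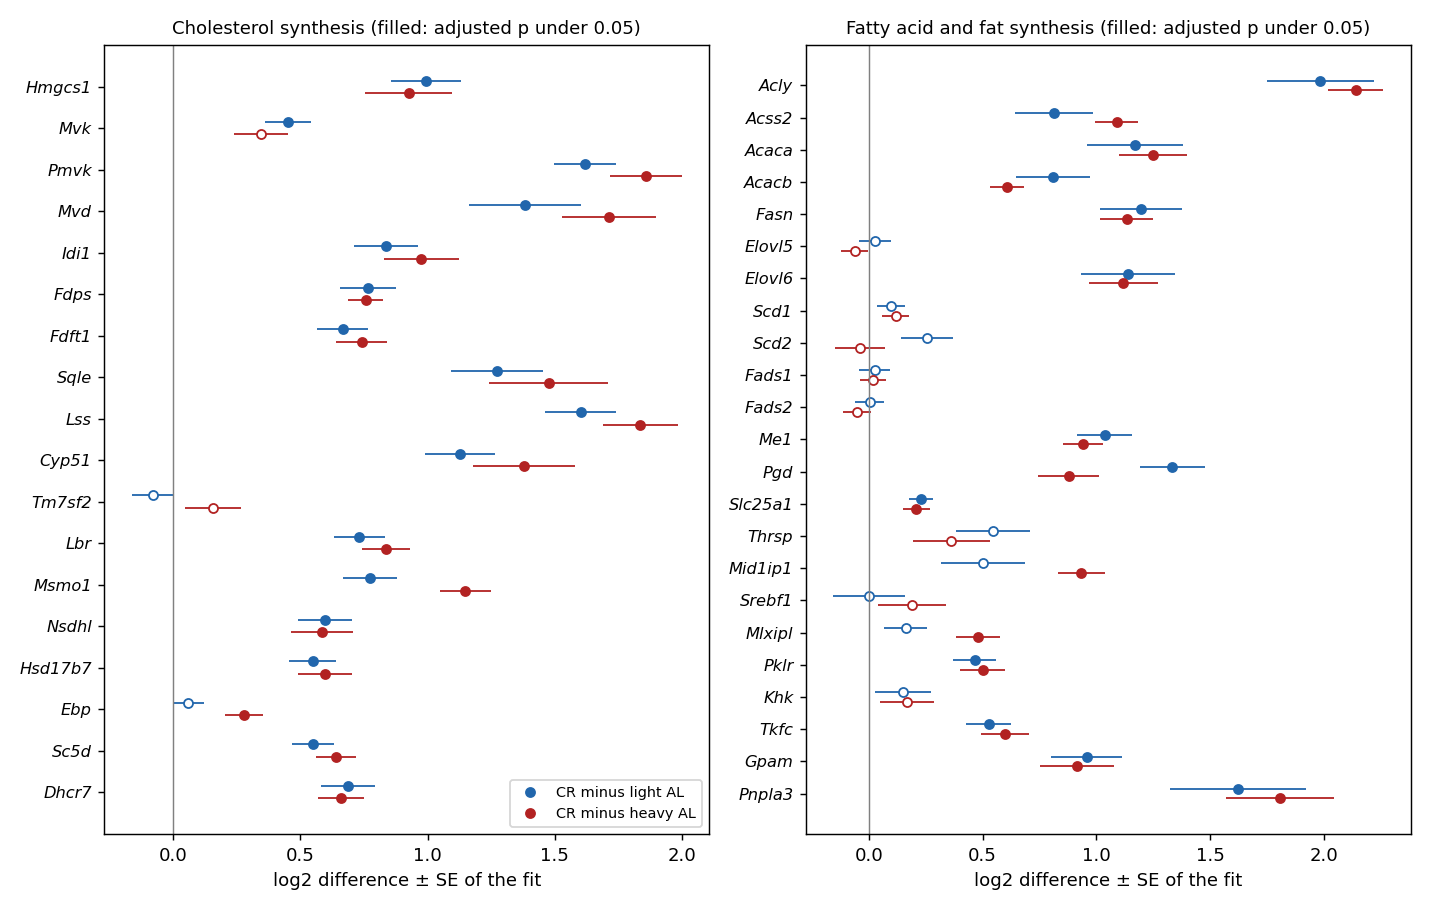
Log2 difference with the SE of the fit (horizontal axis) for the tested genes of cholesterol synthesis (left) and of fatty acid and fat synthesis (right), in pathway order, for CR minus light AL in blue and CR minus heavy AL in red, filled where the adjusted p was under 0.05. In cholesterol synthesis 16 of 18 genes are filled in each comparison, and Acly has the largest difference on the right, 1.98 against light AL.

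Genes of fatty acid and fat synthesis rose in part. Of 26 entries 23 were on the array and tested, 13 rose and none fell (4.83% of all genes tested rose), with a median of 0.53. Acly, the ATP citrate lyase that supplies acetyl-CoA, read 12.04, 11.58, 11.73 and 11.81 in CR, and 10.13, 9.99, 10.14 and 8.97 in light AL livers. It rose 3.95-fold (1.98 ± 0.24, adjusted p = 0.00238). The acetyl-CoA carboxylase Acaca rose by 1.17 ± 0.21 (adjusted p = 0.0106) and the fatty acid synthase Fasn by 1.20 ± 0.18 (adjusted p = 0.00557). The NADPH-forming enzymes Pgd (1.33 ± 0.14, adjusted p = 0.00165) and Me1 (1.04 ± 0.12, adjusted p = 0.00229) rose too, as did the acyltransferase Gpam (0.96 ± 0.16) and the lipase-like Pnpla3 (1.62 ± 0.30). The desaturases of the list stood apart from these. Scd1 (0.10), Scd2 (0.26), Fads1 (0.03) and Fads2 (0.00) did not pass, nor did the regulator Srebf1 (0.00), and these 5 were named after their values were seen.

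Both synthesis lists looked alike against the heavier reference. Against heavy AL livers 16 of 18 cholesterol synthesis genes and 15 of 23 lipogenic genes rose (7.62% of all genes tested), with medians of 0.80 and 0.60, and the comparison used the same 4 CR arrays. Between heavy and light AL livers, where no CR array enters, 0 of these 41 genes were called, with medians of -0.12 and 0.01 (717 genes, 5.02%, were called there). Without 1 array the rises against light AL stayed at 16 of 18 and ranged from 11 to 13 of 23. Between heavy and light AL livers, cholesterol synthesis calls then stayed at 0, and lipogenic genes gave at most 1 higher and at most 2 lower.

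Lipid droplet genes moved the other way, and more against heavy than against light AL livers. Of 20 tested, 5 fell and none rose against light AL (7.59% of all genes tested fell), with a median of -0.19. Fitm1, which partitions fat into droplets, read 8.38, 7.92, 9.34 and 8.90 in CR, and 10.00, 10.06, 10.46 and 10.83 in light AL livers. It fell by 1.70 ± 0.15 (adjusted p = 0.000784), and every CR value was under every light AL value. Cidec, a droplet fusion protein, read 6.01, 5.82, 8.51 and 9.17 in CR, and 7.66, 6.64, 10.68 and 11.27 in light AL livers. Both treatments showed lower CR values, with Wy arrays above mock arrays in both groups. Cidec fell by 1.69 ± 0.28 (adjusted p = 0.0082), the monoacylglycerol acyltransferase Mogat1 by 0.69 ± 0.08 (adjusted p = 0.00238) and the lipases Mgll and Lipe by 0.45 ± 0.07 (adjusted p = 0.0069) and 0.46 ± 0.09 (adjusted p = 0.0146, lost without low C mock at -0.43).

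Against heavy AL livers 11 of the 20 droplet genes fell (9.91% of all genes tested), with a median of -0.50, and 6 were higher in heavy than in light AL livers (3.49%). Cidea, a relative of Cidec that is hardly expressed in lean liver, read 4.25, 4.36, 4.17 and 4.37 in CR with 2 arrays under the filter, 4.57, 4.41, 6.36 and 6.70 in light AL, and 7.81, 8.51, 9.86 and 9.62 in heavy AL livers. CR minus light AL did not pass (-1.23 ± 0.36, adjusted p = 0.0629), while CR minus heavy AL (-4.67 ± 0.31, adjusted p = 0.00041; at least 24.4-fold lower with values raised to the filter) and heavy AL minus light AL (3.44 ± 0.17, adjusted p = 0.000168) did. Mogat1 was lower in CR by -2.36 ± 0.21 against heavy AL (adjusted p = 0.000794), and higher in heavy than in light AL by 1.68 ± 0.18 (adjusted p = 0.00664). The study plotted Cidea, Cidec, Mogat1 and Fgf21 for mice of the same cohort, and counts over those 4 genes (2 falls against light AL, 4 against heavy AL) are therefore no independent evidence. The same holds for 4 inflammation and fibrosis genes (1 fall and 3 falls) and 4 macrophage genes (0 and 1) that it plotted. Of all genes tested 7.59% fell against light AL and 9.91% against heavy AL. The 6 calls between heavy and light AL became 3 without low MF mock, low C Wy, low C mock, high MF mock or high C mock.

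**Figure D4:**
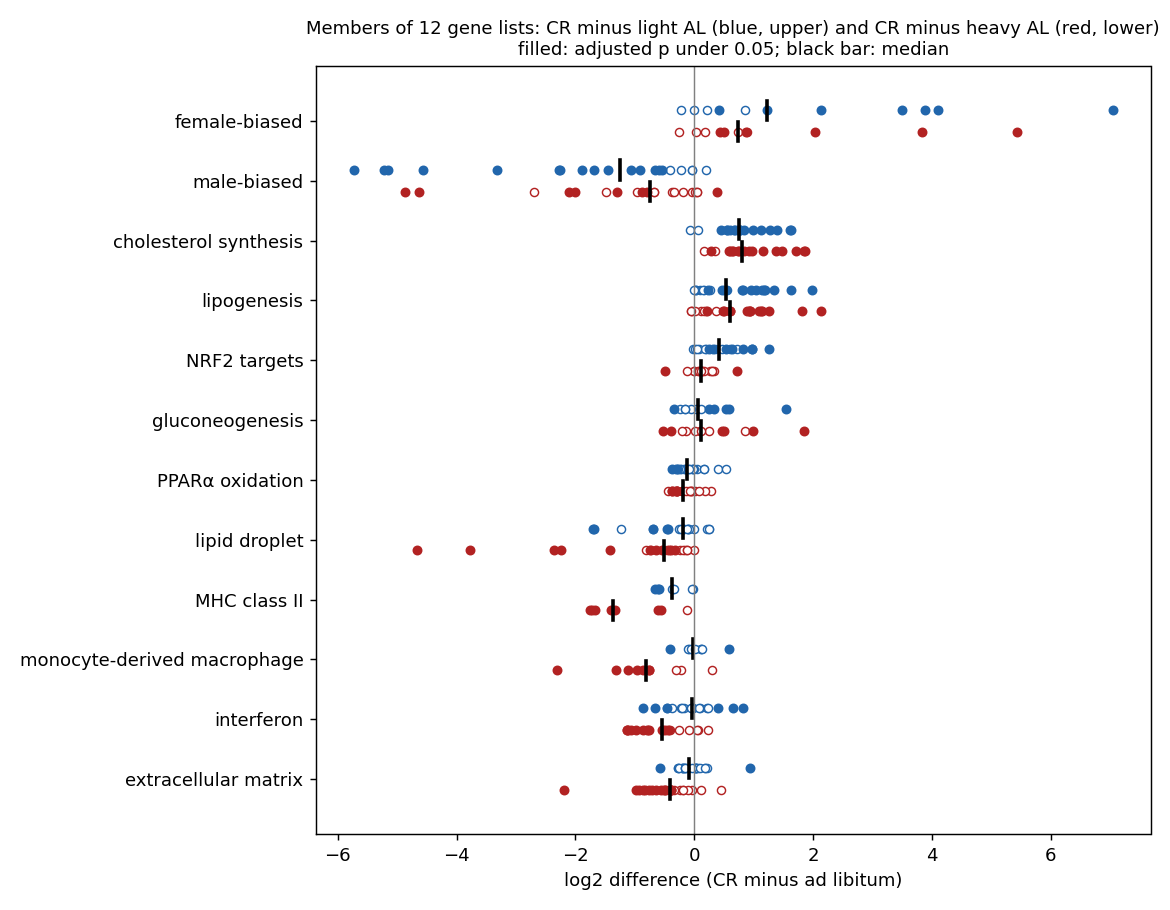
Log2 difference (horizontal axis) of the tested members of 12 gene lists, for CR minus light AL (blue, upper row) and CR minus heavy AL (red, lower row), filled where the adjusted p was under 0.05, with a black bar at the list's median. Cholesterol synthesis has medians of 0.75 and 0.80, while MHC class II has -0.37 and -1.37.

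Of 22 tested PPARα-driven oxidation genes, 2 fell and none rose against light AL, a share near that of all genes tested (7.59% fell), with a median of -0.12. In 11 of the 22 the CR values lay under the light AL values of the same treatment. This was a larger share than among all genes tested, where it held for 2142 of 14275. The calls of Cpt1a (-0.30), the gatekeeper of mitochondrial import, and of the thiolase Acaa1a (-0.38) were both lost without any one light AL array or without high CR Wy, that of Cpt1a also without high CR mock or low CR mock and that of Acaa1a without low CR Wy. With a trended and robust prior 6 of the 22 fell. The receptor gene Ppara read 11.25, 10.93, 11.24 and 11.49 in CR, and 11.42, 11.28, 11.55 and 11.46 in light AL livers (-0.20 ± 0.09, adjusted p = 0.202). Genes of fatty acid uptake and binding formed a separate list, in which 3 of 13 rose and 2 fell (median -0.02; 4.83% and 7.59% of all genes tested). In it the very low density lipoprotein receptor Vldlr rose by 1.05 ± 0.11 (adjusted p = 0.00173), and the fatty acid binding protein Fabp2 fell by 1.00 ± 0.12 (adjusted p = 0.00269). Vldlr was also called higher in heavy than in light AL livers (0.67 to 0.76 log2 with 1 array left out). None of the 19 respiratory chain genes passed (12.4% of all genes tested did).

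Among genes of glucose supply, Ppargc1a, a coactivator of gluconeogenesis, read 10.54, 10.67, 9.03 and 9.72 in CR, and 9.00, 8.85, 7.93 and 8.01 in light AL livers, and it rose 2.91-fold (1.54 ± 0.14, adjusted p = 0.000856). The factor Klf15 rose by 0.53 ± 0.07 (adjusted p = 0.00398). Of the 13 genes of the list 5 rose and 1 fell (4.83% and 7.59% of all genes tested), with a median of 0.06, and 3 rose when any one array was left out, except low C Wy (4). The fall, in pyruvate carboxylase Pcx (-0.34), was lost without high CR Wy, low C mock or low C Wy, and the rise of Pck1 (0.34) without high CR Wy. Ppp1r3g, which brings a phosphatase to glycogen, rose 7.44-fold (2.90 ± 0.38, adjusted p = 0.00323). Among 19 clock genes 2 rose and 2 fell (4.83% and 7.59% of all genes tested). Bhlhe41, a repressor, fell by 1.48 ± 0.13 (adjusted p = 0.000813; 1 of 4 CR arrays was under the filter), while Per1 (0.51 ± 0.10, adjusted p = 0.0134) and Noct (0.84 ± 0.17, adjusted p = 0.0161) rose. Whether the phase of the clock differed was not tested.

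Of 18 tested genes of the NRF2 program 8 rose and none fell in CR against light AL (median 0.41; 4.83% of all genes tested rose). Against heavy AL 1 rose and 1 fell (median 0.12; 7.62% and 9.91% of all genes tested), with 0 or 1 of each when 1 array was left out, and 6 were higher in heavy than in light AL (median 0.27; 3.49% of all genes tested). The quinone reductase Nqo1 read 6.96, 7.58, 7.80 and 7.14 in CR, 5.90, 6.24, 6.24 and 6.05 in light AL, and 7.04, 7.32, 6.93 and 6.84 in heavy AL livers. CR and heavy AL values overlapped, and the light AL values lay under both. Nqo1 rose 2.39-fold against light AL (1.26 ± 0.18, adjusted p = 0.00416), and heavy AL minus light AL was 0.93 ± 0.12 (adjusted p = 0.0119). Ugdh, which makes UDP-glucuronic acid, behaved alike (0.83 ± 0.13, adjusted p = 0.00676; heavy AL minus light AL 0.71 ± 0.07, adjusted p = 0.00509), as did the glutathione transferase Gstm3 against light AL (0.98 ± 0.16, adjusted p = 0.00676). The rises against light AL numbered 5 without low C mock or low C Wy, and those between heavy and light AL 2 without low MF mock, low C Wy, low C mock or high MF mock.

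The promoter of Ugdh is printed as the called NRF2 gene that holds the antioxidant response element core TGACNNNGC, in capitals on either strand (RefSeq, build GRCm38.p6, minus strand, 250 bases before the start).
Ugdh, chr5:65435843-65436092: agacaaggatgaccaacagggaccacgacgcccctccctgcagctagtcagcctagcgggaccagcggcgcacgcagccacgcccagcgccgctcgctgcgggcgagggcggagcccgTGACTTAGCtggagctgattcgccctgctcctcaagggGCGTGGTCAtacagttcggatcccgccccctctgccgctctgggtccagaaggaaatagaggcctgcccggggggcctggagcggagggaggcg
The core was in 3338 of all 32851 promoters (10.2%) and in 5 of 18 promoters of the 14 NRF2 genes that have an entry. This describes letters, not binding.

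Of 8 MHC class II genes, which present antigen on macrophages, dendritic and B cells, 3 fell against light AL (median -0.37; 7.59% of all genes tested fell) and 7 against heavy AL (median -1.37; 9.91%), and 6 were higher in heavy than in light AL (median 1.02; 3.49%). H2-Ab1 read 8.02, 8.64, 8.53 and 8.40 in CR, 8.85, 9.38, 8.84 and 9.15 in light AL, and 10.19, 10.14, 10.49 and 9.63 in heavy AL livers. The 3 groups did not overlap. CR minus light AL was -0.66 ± 0.16 (adjusted p = 0.0344) and CR minus heavy AL -1.72 ± 0.20 (adjusted p = 0.00165). The 3 calls against light AL, H2-Ab1, H2-Aa (-0.61) and H2-Eb1 (-0.59), went to 0 without low MF Wy, low MF mock, low CR Wy, low C mock or high CR mock and to 1 without high CR Wy. Summed over the 8 genes, intensities ran from 1517 to 2373 in CR, with high CR mock lowest, from 2534 to 3324 in light AL and from 4444 to 7646 in heavy AL livers. In bulk tissue, fewer cells of a type and less RNA per cell cannot be told apart.

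Of 10 markers of monocyte-derived and lipid-associated macrophages, 1 rose (Cd9, 0.58) and 1 fell (Cx3cr1, -0.40) against light AL (median -0.02; 4.83% and 7.59% of all genes tested), and the call of Cx3cr1 was lost without any one array but low CR Wy. Of these markers 7 fell against heavy AL (median -0.82; 9.91%), and 6 were higher in heavy than in light AL (median 0.82; 3.49%). Gpnmb, a marker of lipid-laden macrophages, read 4.79, 4.47, 4.57 and 4.48 in CR, 4.52, 4.47, 4.76 and 4.98 in light AL, and 7.87, 7.79, 5.74 and 6.19 in heavy AL livers. CR and light AL overlapped near the filter (-0.10 ± 0.12, adjusted p = 0.637), and CR minus heavy AL was -2.32 ± 0.32 (adjusted p = 0.00353). Of 12 Kupffer cell markers 0 were called against light AL (12.4% of all genes tested were), with 2 called higher without high CR mock. Of 25 matrix genes 1 fell and 1 rose against light AL (median -0.09; 7.59% and 4.83% of all genes tested). Without high CR mock 3 fell, and without low MF Wy 2 rose. Against heavy AL 14 fell (median -0.40; 9.91%), and 7 were higher in heavy than in light AL (median 0.36; 3.49%). The collagenase Mmp2 fell (-0.58 ± 0.12, adjusted p = 0.0148) and the matrix-associated growth factor Ccn2 rose (0.93 ± 0.17, adjusted p = 0.0106) against light AL. The 14 falls became 7 without high CR Wy or high MF mock and 8 without low CR mock. The heavy AL minus light AL calls of these lists rested on single arrays too, with 0 MHC class II calls without low MF mock, low C Wy, low C mock or high MF mock and 1 without high C mock, 1 or 2 macrophage calls without any of these 5, and 0 or 1 matrix calls without 4 of them (3 without high C mock and 4 without high MF Wy).

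Of 20 interferon-induced genes tested, 3 rose and 3 fell against light AL (median -0.04; 4.83% and 7.59% of all genes tested), and 11 fell against heavy AL (median -0.54; 9.91% of all genes tested; 7 without low CR mock, high MF mock, high CR Wy, high C Wy or high C mock). Heavy AL was above light AL in 7 and below it in none (median 0.55; 3.49% of all genes tested were higher), with 0 higher without low C mock, low C Wy or low MF mock, 1 without high MF mock, 2 without high C mock, 4 without high C Wy or low MF Wy and 14 without high MF Wy. The antigen-processing genes Tap1 (-0.87 ± 0.09, adjusted p = 0.0016) and Psmb9 (-0.65 ± 0.07, adjusted p = 0.002) fell against light AL, and the interferon regulator Irf7 rose (0.82 ± 0.06, adjusted p = 0.000545). Irf7 read 9.44, 9.56, 9.21 and 9.33 in CR against 8.60, 8.74, 8.44 and 8.47 in light AL livers. Alas2, the heme synthesis enzyme of erythroid cells, read 8.40, 8.33, 8.30 and 8.20 in CR, 9.74, 10.04, 9.88 and 9.85 in light AL, and 9.55, 9.21, 9.43 and 9.50 in heavy AL livers. It fell by 1.57 ± 0.07 (adjusted p = 4.22e-05), with no overlap between any of the groups. The other erythroid marker on the array, Slc4a1, did not pass. Of 11 B and plasma cell markers 3 fell against light AL (median -0.31; 7.59% of all genes tested fell), 5 fell against heavy AL (median -0.42; 9.91%), and 0 were called between heavy and light AL (median 0.04). Blnk, an adaptor of the B cell receptor, fell by 1.00 ± 0.13 (adjusted p = 0.00318) and kept its call without any one array. The falls against light AL numbered 1 without low CR mock, high CR mock, low C mock, low MF mock or low MF Wy, and those against heavy AL 1 without high CR mock, 2 without low CR Wy or low CR mock and 3 without high CR Wy or high MF mock.

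Further genes outside these programs reached the top of the ranking. The vesicle protein Sytl5 rose by 3.26 ± 0.24 (adjusted p = 0.000497), the magnesium transporter Nipal1 by 1.95 ± 0.15 (adjusted p = 0.000593), the ectonucleotidase Nt5e by 1.74 ± 0.23 (adjusted p = 0.0033), the nicotinic receptor subunit Chrna4 by 2.18 ± 0.39 (adjusted p = 0.0105) and the P450 Cyp2a22 by 2.09 ± 0.29 (adjusted p = 0.00398). The xenobiotic-induced P450 Cyp2b10 was higher by 1.78 ± 0.37 (adjusted p = 0.0169) but not against heavy AL (-0.06), and its call was lost without low C mock (1.59) or low C Wy (1.70). The retinoic acid responder Rarres1 fell by 3.18 ± 0.31 (adjusted p = 0.00115), the sodium-calcium exchanger Slc8a1 by 2.72 ± 0.20 (adjusted p = 0.000497), the complement protein C8a by 1.85 ± 0.18 (adjusted p = 0.00103) and the transporter Slc15a5 by 1.93 ± 0.30 (adjusted p = 0.00573). The acute phase protein Saa2 (-2.78 ± 0.75, adjusted p = 0.0464) lost its call without high CR mock or any one light AL array. These genes were chosen for the size of their difference, so their ranks are a description.

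Hepatocyte zonation markers moved in small steps. Of 16 pericentral hepatocyte markers 6 fell against light AL (7.59% of all genes tested fell; median -0.28, summed intensity 26383 to 33063 in CR and 32447 to 37599 in light AL livers), among them the P450 Cyp1a2 (-0.47 ± 0.08, adjusted p = 0.00971), and 1 to 3 fell without any one light AL array or either CR Wy array. Of 10 periportal hepatocyte markers 3 rose and 1 fell (median 0.31; 4.83% and 7.59% of all genes tested), with the phospho-lyase Etnppl at 0.93 ± 0.18 (adjusted p = 0.015) and the P450 Cyp2f2 at -0.58 ± 0.11 (adjusted p = 0.0139).

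Changes that CR showed against heavy AL mice were then followed in the light reference. limma called 2502 genes in CR minus heavy AL (17.5% of those tested), 1088 higher (7.62%) and 1414 lower (9.91%). Of these 2502 genes, 1005 were called the same way against light AL, 40.2% of the calls against heavy AL and 56.7% of those against light AL, and 4 the opposite way. The comparisons share the 4 CR arrays, so chance values of these arrays enter both. Of the 1493 genes called against heavy but not against light AL, 376 were called between heavy and light AL, and of the 1772 called against light AL, 162 were. The count of 2502 fell to 1363 without high MF mock, 1455 without high CR Wy and 1549 without low CR mock. Between heavy and light AL 717 genes were called, 498 higher (3.49%) and 219 lower (1.53%), and 65 (without low MF mock), 93 (low C mock), 97 (low C Wy), 133 (high MF mock) and 194 (high C mock) with 1 array left out.

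To set comparisons beside each other that share no array, the low CR pair was compared with light AL and the high CR pair with heavy AL. The first gave 745 calls (5.22% of genes tested) and the second 790 (5.53%). Of the 745 genes, 688 (92.3%) had the same sign in the second and 258 (34.6%) were called the same way there. Of the 790 genes, 682 (86.3%) had the same sign in the first and 258 (32.7%) were called the same way, with 2 called the opposite way. The share of same signs over all tested genes was not computed, so the same-sign percentages have no background to be read against.

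A few genes show how a CR difference changes with the reference. The leptin receptor gene Lepr read 10.36, 9.97, 10.14 and 10.73 in CR, 9.20, 8.29, 9.37 and 9.10 in light AL, and 7.47, 7.67, 7.42 and 8.10 in heavy AL livers. The groups formed a descending order without overlap, with CR minus light AL at 1.31 ± 0.21 (adjusted p = 0.0068), CR minus heavy AL at 2.64 ± 0.18 (adjusted p = 0.000447) and heavy AL minus light AL at -1.33 ± 0.22 (adjusted p = 0.0212, lost without high C mock, high MF mock, low C mock or low C Wy). Igfbp2 differed from heavy AL by 1.73 ± 0.14 (adjusted p = 0.000596), with heavy AL minus light AL at -1.31 ± 0.17 (adjusted p = 0.0129, lost without low MF mock). The sodium channel subunit Scnn1a and the hedgehog-binding Hhip differed from heavy AL (1.13 ± 0.08 and 0.99 ± 0.12, adjusted p = 0.000514 and 0.00186), and CR minus light AL was 0.06 ± 0.08 and -0.07 ± 0.12 (adjusted p = 0.709 and 0.767). The fatty acid translocase Cd36 had differences of both signs, 0.56 ± 0.16 from light AL (adjusted p = 0.0509) and -0.84 ± 0.11 from heavy AL (adjusted p = 0.00307).

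**Figure D5:**
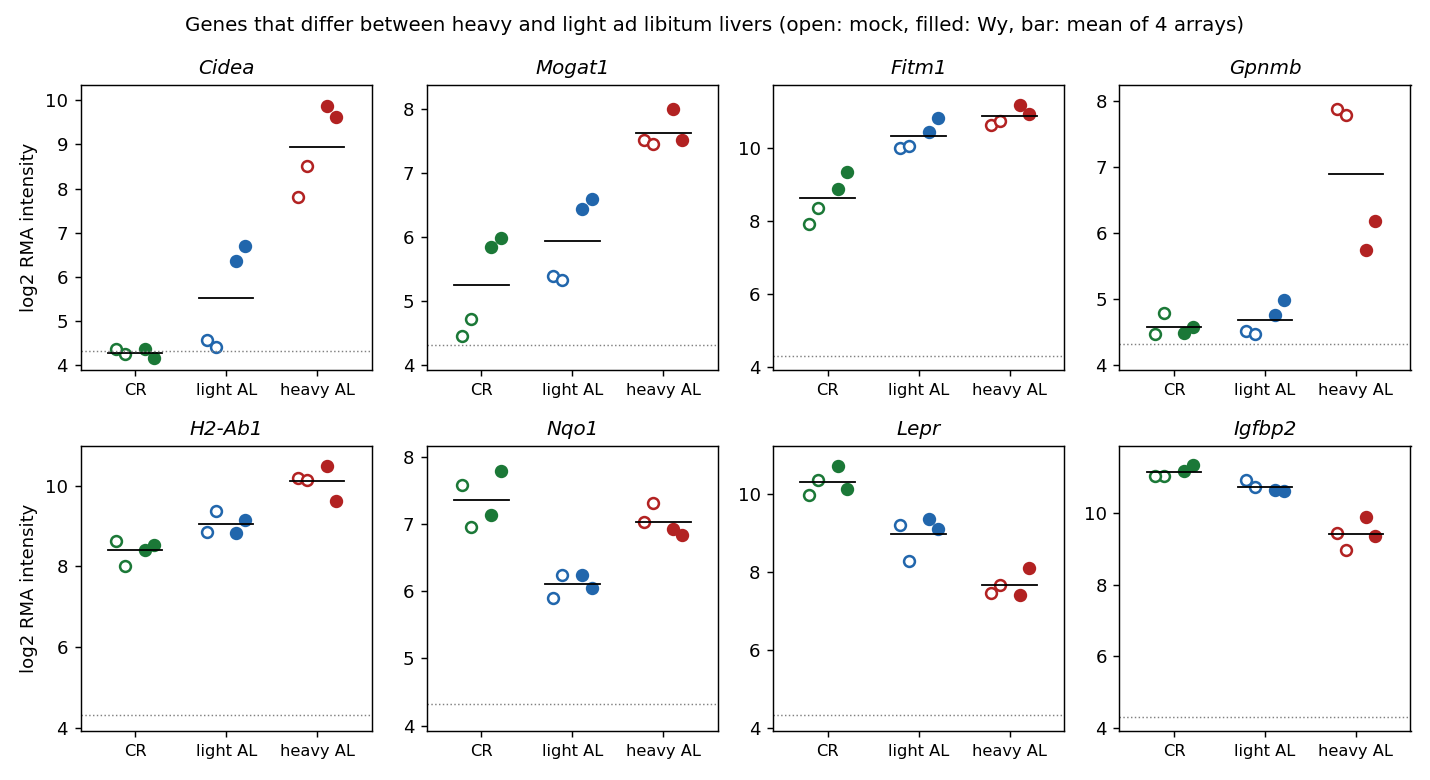
Log2 RMA intensity (vertical axis, each panel with its own range) of 8 genes on the 4 CR, 4 light AL and 4 heavy AL arrays, with open points for mock, filled points for Wy, a bar for the mean of 4 arrays and a dotted line at the filter of log2 4.32. Cidea and Gpnmb are high in heavy AL livers, Nqo1 is low in light AL livers, and Lepr falls from CR over light AL to heavy AL livers.

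Whether the response to Wy differed between CR and light AL livers was tested as an interaction. limma called 0 genes (0.0% of those tested), with 849 under an unadjusted p of 0.05 and the lowest adjusted p at 0.0833. With a trended and robust prior it called 2, Cidea and Pdk4, and without low C Wy it called 2, Cidea among them. The 5 genes with the smallest p were Cidea (-2.07 ± 0.19, adjusted p = 0.0833), Pdk4 (-1.84 ± 0.19, adjusted p = 0.13), Lgr5 (1.19 ± 0.14), Tnfsf10 (0.86 ± 0.11) and Insc (-1.32 ± 0.17), the last 3 with adjusted p = 0.181. Pdk4, a kinase that holds back glucose oxidation, read 9.69 and 9.74 in CR mock and 7.99 and 7.58 in light AL mock livers, and 12.75 and 12.72 in CR Wy and 12.55 and 12.73 in light AL Wy livers. Its mock values did not overlap between the groups and its Wy values did.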

How the data were processed

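Liver RNA of 16 mice was measured on Affymetrix Mouse Gene 1.1 ST arrays, 1 per mouse. The deposited values are log2 intensities, which the authors made by robust multi-array averaging (RMA) over all arrays. RMA corrects background, equalises distributions and summarises probes, and the sources used here do not give its software version. Array medians over 35556 transcript clusters ran from 5.53 to 5.59, and the number of arrays limits the precision. Clusters with 1 annotated gene (21218, against 1881 with several and 12457 unnamed) gave 18820 genes, with the brightest cluster taken for the 1386 genes that had more than 1. A gene was tested if its intensity was over 20 (log2 4.32) on at least 5 of 16 arrays, as in the study's own array work, which kept 14275 and left out 4545.

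Groups came from the diet and weight class in the labels. Each comparison was fitted on its 8 arrays with limma 3.58.1 in R 4.3.3, with group and treatment as terms (5 residual degrees of freedom, 4 for the interaction) and Benjamini-Hochberg adjustment over all tested genes. Before use, these fits were tested on simulated data with known changes. Mock and Wy mice were matched by weight within a diet. Each matched pair lies within 1 group, so the pair entered only as a random block in an alternative. Named genes were the 15 highest rises and 15 deepest falls against light AL among called genes beyond every light AL array of their treatment (predicted genes, pseudogenes and olfactory receptors skipped), at most 6 members per list, by smallest p, 12 genes the study plotted, 8 genes each way that differ from heavy AL and between heavy and light AL, the 5 smallest p of the interaction, Ppara and Ghr. A few genes outside this rule are marked as named after their values were seen. The 47 gene lists hold 715 entries, and 582 of their 689 genes were tested. The members and lists were chosen with earlier results of these data known. Alternatives changed the filter, the prior, the centring of arrays, the cluster of a gene, the arrays in the fit, the reference diet and the CR weight class, and left out each array. Promoters are from RefSeq, build GRCm38.p6.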

Additional observations from a re-analysis of the deposited data

Results flagged for a closer look

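In 558 groups of 4 arrays (CR and light AL for each named gene), 21 held an array far from the other 3 by Dixon's test. The test flags about 1 group in 20 by chance when all 4 values come from 1 distribution. Each group here mixed mock and Wy arrays, so the 21 cannot be set against that rate. The high CR mock array stood apart on the low side in 5 macrophage, antigen presentation and endothelial genes. These were Adgre1 at 7.41, C1qc at 8.55, Cd74 at 8.76, H2-DMa at 6.16 and Clec4g at 11.25 log2. It stood apart on the high side in Trem2 at 6.17, where the other CR arrays lay within 6.10 to 6.11. The low CR Wy array stood apart in Cyp51 (10.06), Ccl2 (5.64) and Mmp12 (5.96), the low CR mock array in G6pc (13.06) and Noct (9.48), and the high CR Wy array in Mcm5 (6.87). Among light AL livers the low MF Wy array stood apart in Hao2 (4.22, under the filter), Acly (8.97), Hsd3b7 (10.80) and Atg7 (9.25), the low MF mock array in Igfals (9.54), Sesn2 (6.66) and Orm3 (6.07), the low C Wy array in Col14a1 (8.83) and the low C mock array in Ckm (5.27). Of these, G6pc was called against light AL (0.25) and lost its call without any one array. Sesn2 and Atg7 were called too and lost their calls without 7 of the 8 arrays in turn, and Igfals without 5. The calls of Hao2, Acly, Cyp51, Noct and Hsd3b7 held whichever array was left out.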

How the results depend on the processing

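Of CR minus light AL, the count of 1772 was 1551 to 1960 with another filter, trended prior, centring, cluster choice or all 12 or 16 arrays, 981 to 1577 without 1 array, and 493 without the treatment term. Fits on fewer arrays gave 83 (mock), 347 (Wy), 604 (light C only), 684 (light MF only), 745 (low CR only) and 756 (high CR only). CR minus heavy AL gave 1363 to 2182 without 1 array, 1355 without the treatment term, 427 (mock), 118 (Wy) and 790 (high CR only), and heavy AL minus light AL 65 to 930, 176, 282 and 2. The interaction gave 0 to 2 without 1 array and 2 with a trended and robust prior. No value changed sign past the threshold. Of 147 named calls 89 held without any one array. With the matched pair as a random block, CR minus light AL gave 2301 calls, CR minus heavy AL 2510 and heavy AL minus light AL 552. For CR minus light AL the consensus correlation within pairs was -0.149, and a negative value narrows the SE of a difference between groups. That 0 of the 147 named calls against light AL were lost with this block is therefore no check on the pairing. Across genes, the difference between the 2 matched pairs of a group in mock mice correlated with that in Wy mice at -0.17 in CR, 0.10 in light AL and 0.43 in heavy AL livers. Centring moved the share of higher calls from 38.9% to 36.0% against light AL.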
